A study of Homo sapiens with 46 samples.

Results

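The 59 genes described here encode nuclear-encoded subunits of the respiratory chain and of ATP synthase. They were chosen by gene symbol from a fixed list of subunit names, with earlier results of these data known. All 59 were found in each of the 4 count tables, which together name 21183 genes with an Ensembl gene. Complex I (NADH dehydrogenase) contributed 33 of them, with 27 accessory and 6 core subunits. Complex III (the cytochrome bc complex) contributed 7, complex IV (cytochrome c oxidase) 11, counting NDUFA4 there, and complex V (ATP synthase) 8.

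The respiratory chain passes electrons from NADH through complex I, ubiquinone, complex III and cytochrome c to oxygen at complex IV, and complex V uses the resulting proton gradient to make ATP. A small part of the subunits is encoded in mitochondrial DNA, and the rest is transcribed in the nucleus, spliced, exported, translated in the cytosol and imported into mitochondria. Pluripotent stem cells are known for strong glycolysis beside a working respiratory chain, and the nuclear subunit genes are active in nearly all cell types.

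RNA was sequenced from subcellular fractions of H1, an established human pluripotent stem cell line (hPSC), kept in mTeSR1 medium on Matrigel, and from cells differentiated from this line over 5 days toward ectoderm, endoderm or mesoderm. Ectoderm cells were made with A83-01, PNU-74654 and Dorsomorphin, endoderm cells with WNT3A and Activin A, and mesoderm cells with VEGF, BMP4, bFGF and Activin A. All groups thus share 1 cell line, and no gene was altered. The series text speaks of actinomycin D, but the labels of these libraries name no such treatment. Each of the 4 cell types was separated into cytoplasm, whole nucleus, nucleoplasm (the soluble part after nuclear lysis) and chromatin (the pellet). There were 3 libraries in each of the 16 groups except mesoderm nucleoplasm, which had 1, giving 46 libraries. The labels do not say that replicates came from separate cultures, so p-values measure the spread between these libraries, which may be technical.

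Library totals ran from 4990408 to 21298678 counts. All 59 genes passed the low-count filter in every fit. Counts of a listed pseudogene, kept apart from those of its member, equalled at most 7.23% of the member's counts (NDUFB1 in ectoderm). They equalled 6.72% for NDUFV2 and 3.61% for COX6A1 there, and how reads shared with such copies were split is uncertain. Levels are given as normalised CPM, that is read counts scaled to a common library size with TMM factors. They are shares of a library after scaling: the RNA amount of a fraction is not part of them, and in bulk samples fewer cells of a type and less RNA per cell cannot be told apart. Some fractions went against their labels in marker RNAs. Mitochondrially encoded genes took a median of 0.576% of counts in hPSC cytoplasm against 13.8% in the hPSC nucleus, 1.36% against 10.2% in ectoderm, and 0.434% against 10.6% in endoderm, while mesoderm had 7.25% in cytoplasm and 1.31% in the nucleus. MALAT1, a nuclear-retained RNA, had a median of 279.6 TPM (a length-scaled share of transcripts) in ectoderm cytoplasm against 28.6 in the ectoderm nucleus, and 26.2 against 11.8 in hPSC, so the libraries labelled nucleus were low in a nuclear RNA and rich in mitochondrial RNA in 2 cell types. Only in mesoderm did both markers fall on the labelled side, with MALAT1 at 48.9 TPM in cytoplasm and 197.4 TPM in the nucleus. Their part in the differences below was not tested, nor was whether the cytoplasm and nucleus labels of these libraries are right. Directions between cytoplasm and nucleus are therefore given between libraries as labelled, and an exchange of labels would turn them. Of the germ layer markers, POU5F1, a pluripotency factor, was at 2453 to 2660 TPM in hPSC cytoplasm and still at 1476 to 1865 TPM in endoderm and 819 to 977 TPM in mesoderm, against 5.29 to 8.26 TPM in ectoderm. PAX6 in ectoderm (97.01 to 123.7 TPM), SOX17 in endoderm (70.5 to 97.6 TPM) and HAND1 in mesoderm (98.9 to 106.5 TPM) were present.

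In TPM complex IV held the most abundant and complex I the least abundant of these transcripts. Averaged over the 16 groups, COX7C of complex IV stood at 1271 TPM, NDUFS5 of complex I at 673 TPM, ATP5F1B, the catalytic beta subunit of ATP synthase, at 578 TPM and UQCRH, the hinge protein of complex III, at 553 TPM. The lowest of each complex were ATP5PB at 85.0, COX7B at 78.7, UQCRFS1, the Rieske iron-sulphur protein, at 57.0 and NDUFA9 at 20.2 TPM. The levels of core and catalytic subunits spread widely, since ATP5F1B led complex V while NDUFS1, the large iron-sulphur subunit of complex I, averaged 24.2 TPM. TPM levels of some genes cannot be set across cell types, because each table rests on its own transcript assembly. The length that counts and TPM together imply differed more than 2-fold between tables for 16 of the 59 genes, and for ATP5F1E, the epsilon subunit of ATP synthase, it was 3657 bases in ectoderm against 112 in hPSC, 83.8 in endoderm and 88.8 in mesoderm. The implied length also differed 15.7-fold for COX7B, 3.49-fold for NDUFA9, 3.27-fold for UQCRFS1 and 2.15-fold for COX7C. The averages and ranks of these genes above depend on those lengths.

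The first comparison asks where in the cell the subunit transcripts lie. In hPSC, 53 of the 59 genes were higher in cytoplasm than in the nucleus and 2 were lower, by edgeR's quasi-likelihood test with Benjamini-Hochberg adjusted p under 0.05 over 13997 genes, where 65.7% of all genes were called, 35.6% higher and 30% lower. Mesoderm had 51 higher and 1 lower, against 63.3% of all genes called, 32.1% higher and 31.2% lower. Endoderm had 33 higher and 5 lower, against 69.8% called, 34.3% higher and 35.5% lower. Ectoderm had 11 higher and 11 lower, against 53.5% called, 28.7% higher and 24.8% lower, so fewer of the subunit genes than of all genes were called there. The median log2 change over the 59 genes was 1.89 for mesoderm, 1.19 for hPSC, 0.68 for endoderm and -0.10 for ectoderm, where the medians over all tested genes were 0.00041, 0.11, 0.01 and 0.03. A set of 11 members was called higher in cytoplasm in all 4 cell types: NDUFA5, NDUFA12, NDUFB3, NDUFS5, NDUFV2, UQCRB, COX6C, COX7B, ATP5F1C, ATP5PB and ATP5PF. They are 18.6% of the members, and 10.4% of the 10428 genes tested in all 4 cell types were called higher in each.

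These counts shift with the scaling and with single libraries. Leaving out hPSC cytoplasm replicate 1, in which the summed level of the 59 genes was highest, took the hPSC median to 0.72, with 46 higher and 2 lower. Leaving out ectoderm nucleus replicate 2 turned the ectoderm median to 0.17, with 21 higher and 7 lower. Without ectoderm nucleus replicate 1 it was -0.25, with 7 higher and 13 lower, without cytoplasm replicate 3 it was -0.19, with 5 and 12, and without cytoplasm replicate 1 it was -0.04, with 9 and 7. Scaling by library totals gave 24 higher and 5 lower in ectoderm, and TPM 13 higher and 3 lower, where the all-gene medians rose to 0.38 and 0.20 and 78% and 75.5% of all calls were higher. In mesoderm TPM gave 32 higher and 7 lower, with an all-gene median of -0.83. Relative to the all-gene median, the members' median was above it under every setting in hPSC (0.89 to 1.10), endoderm (0.51 to 0.74) and mesoderm (1.61 to 1.89), whereas in ectoderm it lay between -0.16 and 0.00.

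Complex I had 29 of 33 subunits higher and 1 lower in cytoplasm in hPSC, 5 and 5 in ectoderm, 18 and 3 in endoderm, and 28 and 1 in mesoderm. NDUFA5, an accessory subunit of the arm that reaches into the matrix, was at 15.2, 8.91 and 13.04 CPM in the 3 ectoderm nucleus libraries and at 75.4, 46.4 and 64.4 CPM in cytoplasm. In endoderm it was at 1.19, 3.67 and 5.75 CPM in the nucleus and at 37.2, 44.8 and 33.4 CPM in cytoplasm. The groups did not overlap in either cell type, and the log2 change was 2.35 ± 0.21 (SE) in ectoderm (adjusted p = 9.72e-07) and 3.39 ± 0.38 in endoderm (adjusted p = 1.58e-06), against 1.67 ± 0.37 in hPSC and 1.59 ± 0.18 in mesoderm. NDUFB9, an accessory subunit of the membrane arm, went the other way. In endoderm its nuclear libraries stood at 190, 122 and 112 CPM and its cytoplasmic ones at 53.4, 50.6 and 52.5 CPM, and in ectoderm at 64.6, 106 and 78.0 against 38.4, 44.5 and 53.3 CPM. It was lower in cytoplasm by a log2 change of -1.44 ± 0.24 in endoderm (adjusted p = 7.8e-05), -0.87 ± 0.17 in ectoderm and -0.84 ± 0.18 in hPSC, and it was the 1 lower subunit of complex I in hPSC. In mesoderm NDUFB9 was at 43.2, 63.2 and 36.1 CPM in the nucleus and 57.9, 87.7 and 79.3 CPM in cytoplasm, overlapping groups that did not pass the test (0.66 ± 0.32, adjusted p = 0.0926).

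Core subunits of complex I had lower median changes than accessory ones, at 0.89 against 1.24 in hPSC, -0.20 against -0.06 in ectoderm, 0.27 against 0.70 in endoderm and 0.69 against 1.90 in mesoderm. Over all members, Spearman's rho between this change and the length of the most counted listed transcript was -0.33 in hPSC and -0.51 in mesoderm. It was 0.02 in both ectoderm and endoderm. The part of length in differences between subunit classes, here and below, was not tested. NDUFS1 was the single member called lower in mesoderm cytoplasm. It was at 75.4, 72.2 and 71.3 CPM in the mesoderm nucleus and at 56.7, 49.9 and 50.1 CPM in cytoplasm, with no overlap and a log2 change of -0.48 ± 0.15 (adjusted p = 0.0137), yet it was higher in endoderm cytoplasm by 0.64 ± 0.15. NDUFV1, the subunit that takes electrons from NADH, was higher in hPSC cytoplasm (0.67 ± 0.11), lower in ectoderm cytoplasm (-0.39 ± 0.15, adjusted p = 0.0464), and at 0.01 in endoderm and 0.37 in mesoderm without passing the test. Its ectoderm call was lost in 3 of 6 fits without 1 library. NDUFS7, a core subunit with the last iron-sulphur cluster before ubiquinone, and NDUFA13, an accessory subunit, were both at -0.70 in endoderm. Scaling by library totals gave 0.059 and 0.058 there, with the all-gene median at 0.73, so relative to all genes they stayed below. The largest rise in mesoderm was NDUFB1, a small accessory subunit with 1.43, 1.83 and 0.701 CPM in the nucleus and 6.35, 33.7 and 13.7 CPM in cytoplasm. Its log2 change of 3.78 ± 0.64 rests on low counts, since its lowest mesoderm library held 7.

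Complex III had all 7 subunits higher in hPSC cytoplasm, 6 in mesoderm, 4 in endoderm with 1 lower, and 1 in ectoderm with 2 lower. UQCRB, an accessory subunit near the quinone site, was called higher in cytoplasm in every cell type. In endoderm it was at 7.15, 15.2 and 13.9 CPM in the nucleus and at 105, 102 and 95.5 CPM in cytoplasm. In hPSC it was at 45.3, 31.3 and 31.5 CPM in the nucleus and at 303, 167 and 133 CPM in cytoplasm. All cytoplasmic libraries thus stood above all nuclear ones, by a log2 change of 3.05 ± 0.27 (adjusted p = 1.52e-07) and 2.48 ± 0.41 (adjusted p = 0.000128), with 2.72 ± 0.33 in mesoderm and 1.55 ± 0.23 in ectoderm. UQCRH had its largest difference in mesoderm, with 20.2, 27.8 and 18.2 CPM in the nucleus against 187, 235 and 239 CPM in cytoplasm (3.32 ± 0.36, adjusted p = 1.65e-05).

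CYC1, the cytochrome of complex III that hands electrons to cytochrome c, differed in direction between cell types. Its hPSC nuclear libraries stood at 152, 154 and 175 CPM below cytoplasm at 292, 203 and 189 CPM, whereas in ectoderm the nucleus at 128, 212 and 140 CPM lay above cytoplasm at 94.8, 100.1 and 105 CPM. In endoderm the nucleus stood at 267, 164 and 176 CPM and cytoplasm at 123, 128 and 155 CPM. The log2 change was 0.51 ± 0.15 in hPSC, 0.44 ± 0.14 in mesoderm, -0.68 ± 0.15 in ectoderm and -0.58 ± 0.19 in endoderm, each past the threshold. Without 1 library the call was lost in 3 of 6 fits in hPSC, and in 1 each in endoderm and mesoderm. Scaling by library totals gave 0.18 in endoderm with the all-gene median at 0.73, and TPM gave -0.64 in mesoderm with it at -0.83. The core proteins UQCRC1 and UQCRC2 had a median of 0.57 in hPSC against 2.22 for the 3 accessory subunits, and 0.46 against 2.72 in mesoderm. UQCRC1 was lower in ectoderm cytoplasm (-0.81 ± 0.16), and UQCRFS1 was higher in hPSC (1.27 ± 0.16), endoderm (0.79 ± 0.17) and mesoderm (1.47 ± 0.23) and at -0.10 in ectoderm.

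Complex IV had 9 of 11 subunits higher and 1 lower in hPSC, 2 and 2 in ectoderm, 5 and 1 in endoderm, and 10 and 0 in mesoderm. COX6A1, the widely expressed form of subunit VIa, had the largest nuclear excess of the 59 genes in hPSC, ectoderm and endoderm. In hPSC it was at 339, 395 and 410.0 CPM in the nucleus, 174, 187 and 169.8 CPM in nucleoplasm, 123, 124 and 125 CPM on chromatin and 186, 112 and 97.3 CPM in cytoplasm. Endoderm nuclei held 364, 245 and 231 CPM and endoderm cytoplasm 75.5, 65.0 and 77.0 CPM, and ectoderm nuclei 146, 216 and 154 CPM against 67.6, 80.5 and 90.3 CPM. The groups did not overlap, and COX6A1 was lower in cytoplasm by -1.53 ± 0.19 in hPSC (adjusted p = 1.13e-05), -1.95 ± 0.30 in endoderm and -1.12 ± 0.15 in ectoderm. In mesoderm its nucleus was at 64.1, 79.3 and 65.8 CPM and its cytoplasm at 82.8, 105 and 114 CPM, without overlap but short of the threshold (0.53 ± 0.30, adjusted p = 0.138). COX8A, the smallest nuclear-encoded subunit, went from 14.5, 19.4 and 18.8 CPM in the mesoderm nucleus to 93.6, 132 and 139.8 CPM in cytoplasm, a log2 change of 2.80 ± 0.34. COX4I1, the regulatory subunit, was higher in cytoplasm in mesoderm (1.72 ± 0.28) and hPSC (0.68 ± 0.17), lower in ectoderm (-0.48 ± 0.15) and at -0.13 in endoderm. Without 1 library the COX4I1 call was lost in 3 of 6 fits in ectoderm and in 2 of 6 in hPSC.

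**Figure D1:**
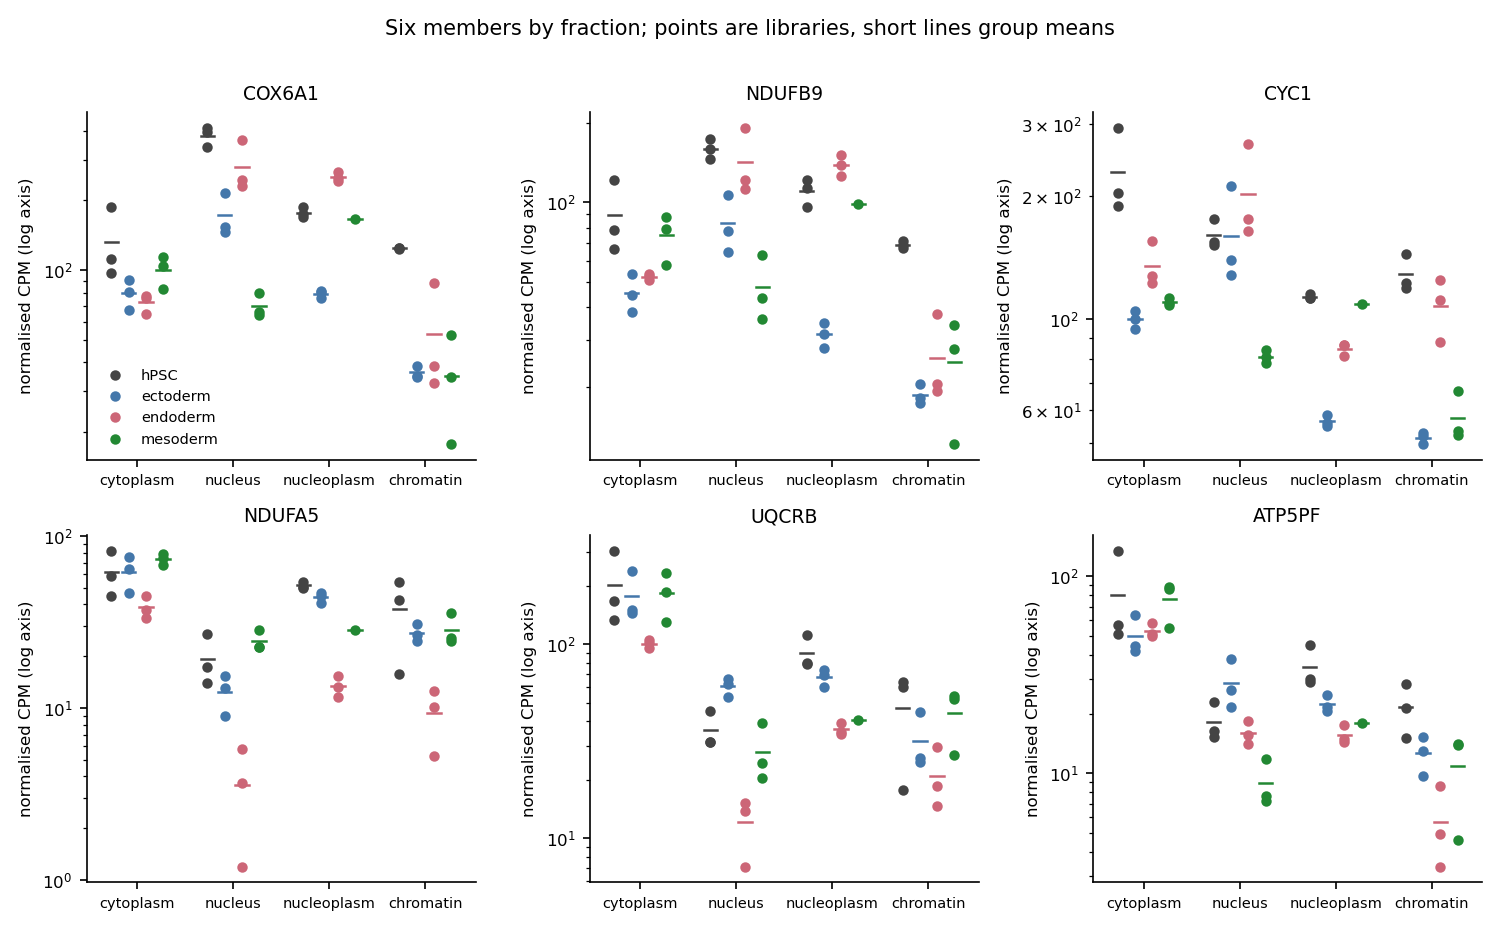
Normalised CPM on a log axis for COX6A1, NDUFB9, CYC1, NDUFA5, UQCRB and ATP5PF in the 4 fractions of each cell type, with points for libraries and lines for group means. COX6A1 and NDUFB9 are highest in the nuclear or nucleoplasmic libraries, while NDUFA5, UQCRB and ATP5PF are highest in cytoplasm.

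Complex V had all 8 subunits higher in hPSC cytoplasm, 7 in mesoderm, 6 in endoderm, and 3 higher and 2 lower in ectoderm. The peripheral stalk genes ATP5PB, ATP5PF and ATP5PO, which hold the catalytic head still, had larger median changes than the F1 head and central stalk: 1.60 against 0.94 in hPSC, 0.35 against -0.21 in ectoderm, 1.72 against 0.69 in endoderm and 2.11 against 1.32 in mesoderm. ATP5PF was at 18.5, 14.1 and 15.7 CPM in the endoderm nucleus and at 57.7, 50.1 and 50.9 CPM in cytoplasm (1.72 ± 0.24), and its changes elsewhere were 3.12 ± 0.37 in mesoderm, 2.14 ± 0.35 in hPSC and 0.78 ± 0.22 in ectoderm. The catalytic pair differed less. ATP5F1B was higher in hPSC cytoplasm (0.70 ± 0.11), lower in ectoderm cytoplasm (-0.47 ± 0.15, adjusted p = 0.017), and at 0.29 in endoderm and 0.39 in mesoderm without passing. Its ectoderm call was lost in 3 of 6 fits without 1 library. ATP5F1A, the alpha subunit, was higher in hPSC (0.69), endoderm (0.69) and mesoderm (0.62, adjusted p = 0.0212, and -0.54 on the log2(TPM + 1) scale) and at -0.21 in ectoderm. The mesoderm call of ATP5F1A was lost in 3 of 6 fits without 1 library. ATP5F1D, the delta subunit of the stalk, was lower in ectoderm cytoplasm (-0.60 ± 0.17), and ATP5F1E reached 3.70 ± 0.41 in mesoderm.

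Other genes of the pathway shared part of this pattern. Among 21 further nuclear-encoded subunits, 19 were higher and 1 lower in hPSC cytoplasm, 4 and 2 in ectoderm, 18 and 1 in endoderm and 19 and 1 in mesoderm, and ATP5ME, a small membrane subunit of ATP synthase, reached a log2 change of 3.07 in hPSC and 4.00 in mesoderm. A list of 47 assembly factors, which build the complexes but do not stay in them, was also counted. Of these, 33 were higher and 4 lower in hPSC cytoplasm, and 18 and 7 in ectoderm. Endoderm had 28 and 7, and mesoderm 33 and 3. Over all genes, 28.7% were higher and 24.8% lower in ectoderm cytoplasm, with 53.5% called. For the other cell types, 32.1 to 35.6% of all genes were higher and 30 to 35.5% lower. NDUFAF4, a complex I assembly factor, was higher by 2.49 in endoderm, 2.25 in hPSC and 1.79 in ectoderm. The 13 mitochondrially encoded subunits were all lower in cytoplasm in hPSC (median -5.42), ectoderm (-3.27) and endoderm (-6.09), while 12 were higher in mesoderm cytoplasm (2.85). The 82 cytosolic ribosomal protein genes, short abundant coding transcripts like many of the members, were all higher in hPSC and mesoderm cytoplasm, and 9 were higher and 8 lower in ectoderm.

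The base composition of the coding sequence ordered the members' changes between cytoplasm and nucleus in ectoderm and endoderm. The 4 genes with low and the 4 with high G and C content in the coding sequence shown here are given by their first 60 coding bases on the coding strand, from the GENCODE release 29 annotation of GRCh38 (hg38), with G and C in capitals. They were picked by coding GC from members whose most counted listed transcript in hPSC is protein coding. The members of a single chromosome were left out beforehand, and the endoderm change played no part in the pick. The lowest coding GC of any member, 41.1%, is therefore not among them.
NDUFA5: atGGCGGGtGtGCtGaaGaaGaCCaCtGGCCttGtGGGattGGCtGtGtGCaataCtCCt
NDUFB3: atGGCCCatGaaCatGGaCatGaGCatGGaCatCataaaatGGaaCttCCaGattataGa
ATP5PF: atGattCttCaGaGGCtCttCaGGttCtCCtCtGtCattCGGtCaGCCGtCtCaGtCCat
ATP5F1C: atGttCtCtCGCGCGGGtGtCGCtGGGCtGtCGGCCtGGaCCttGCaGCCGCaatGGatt
ATP5F1D: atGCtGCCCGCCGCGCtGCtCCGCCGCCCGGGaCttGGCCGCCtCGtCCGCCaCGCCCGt
NDUFS7: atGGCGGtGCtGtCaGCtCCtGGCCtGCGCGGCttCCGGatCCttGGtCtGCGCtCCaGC
NDUFB7: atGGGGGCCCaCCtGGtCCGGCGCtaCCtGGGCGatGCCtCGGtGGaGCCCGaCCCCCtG
COX8A: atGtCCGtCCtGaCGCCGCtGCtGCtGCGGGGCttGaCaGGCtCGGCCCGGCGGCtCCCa

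Over the whole coding sequence, G and C made up 42.2% in NDUFA5 (chr7:123536997-123558255, minus strand), 42.8% in NDUFB3 (chr2:201071433-201085750, plus strand) and ATP5PF (chr21:25716503-25735673, minus strand), and 43.8% in ATP5F1C (chr10:7788129-7807815, plus strand). It was 68.1% in ATP5F1D (chr19:1241746-1244826, plus strand), 66.0% in NDUFS7 (chr19:1383527-1395589, plus strand), 65.7% in NDUFB7 (chr19:14566078-14572062, minus strand) and 65.2% in COX8A (chr11:63974607-63976543, plus strand). The first 60 bases already differ, with 24 to 38 G or C in the low group and 41 to 48 in the high group. Of the 59 members, 9 lie on chromosome 19, the chromosome of 3 of the 4 high examples.

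In endoderm, 17 of the 19 members with the lowest coding GC (41.1 to 47.6%) were higher in cytoplasm and none was lower, with a median log2 change of 1.56, while of the 19 with the highest (56.3 to 68.1%) 3 were higher and 4 lower, with a median of 0.09. In ectoderm the low class had 10 higher and 1 lower (median 0.35) and the high class 0 higher and 7 lower (median -0.39). In hPSC the medians of these classes were 1.52 and 1.03, and in mesoderm 1.79 and 1.89, so the order was weak or missing there. Spearman's rho between coding GC and the change over the 59 genes was -0.74 for both ectoderm and endoderm, -0.33 for hPSC and -0.16 for mesoderm, as a description of genes measured in the same libraries. Over all genes rho was -0.64, -0.58, -0.28 and -0.11, so the ordering was not particular to the respiratory chain. The members' median stayed above that of all genes in the same GC range in endoderm, at 1.56 against 1.12 in the low class and 0.09 against -0.57 in the high class. In ectoderm it was below in the low class, at 0.35 against 0.51, and above in the high class, at -0.39 against -0.45.

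**Figure D2:**
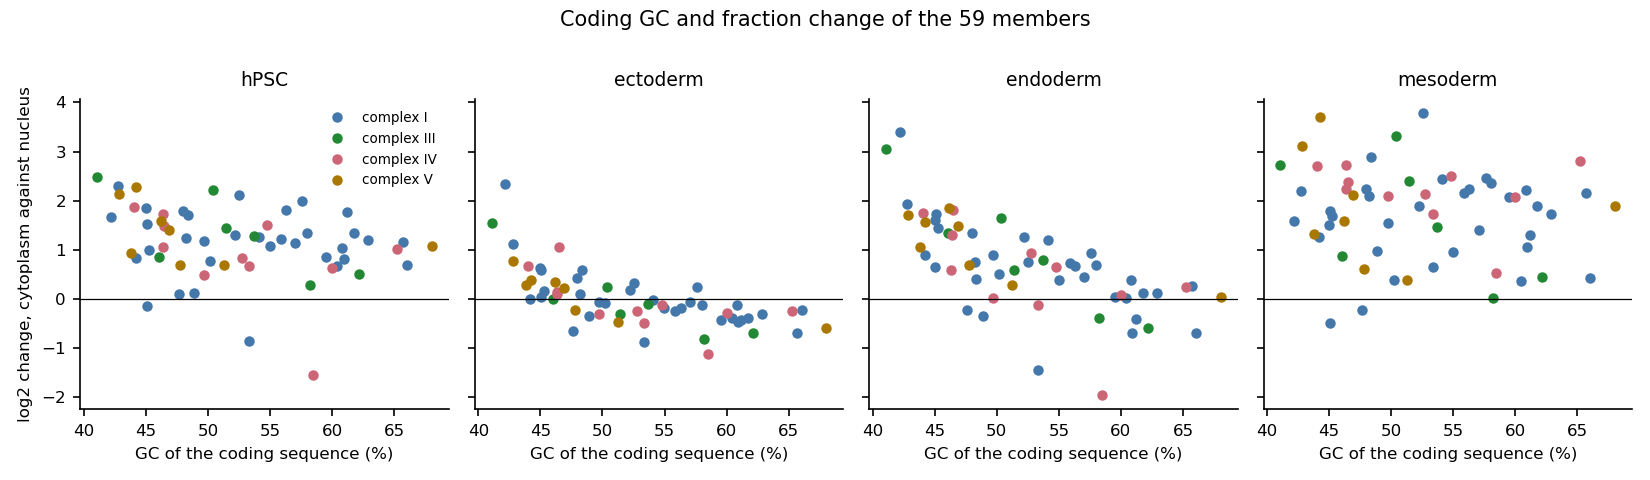
Coding GC (%) of each of the 59 genes on the horizontal axis against its log2 change between cytoplasm and nucleus on the vertical axis, 1 panel per cell type. The points fall from left to right in ectoderm and endoderm (rho -0.74 in each) and form no clear slope in mesoderm (rho -0.16).

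The second comparison asks how transcripts inside the nucleus divide between nucleoplasm and chromatin. Most called members were lower on chromatin: 37 of 59 lower and 1 higher in ectoderm, where 43.2% of all genes were called, 21.7% lower and 21.5% higher, and 45 lower and 2 higher in endoderm, where 53.6% were called, 30.7% lower and 22.9% higher. In hPSC 9 were lower and 1 higher, against 30.6% of all genes called, 13.5% lower and 17.1% higher, and the lower members were near the background share. The median log2 change was -1.15 for endoderm, -0.72 for ectoderm and -0.42 for hPSC. Spearman's rho between coding GC and this change over the members was 0.71 in hPSC, 0.35 in ectoderm and 0.28 in endoderm. Over all genes rho was 0.595, 0.31 and 0.29, so this ordering too was not particular to the members. Complex IV was lower in all 11 subunits in ectoderm (median -0.84) and in 10 of 11 in endoderm (median -1.70), and in 2 of 11 in hPSC. Mitochondrially encoded genes moved the same way, with a median of 11.5% of counts in nucleoplasm against 1.45% on chromatin in endoderm, 8.87% against 2.57% in ectoderm and 11.8% against 4.94% in hPSC, and their part in the difference was not tested. Mesoderm nucleoplasm had 1 library, so no test was made there.

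A set of 8 members was lower on chromatin in all 3 cell types: NDUFA12, NDUFB9, UQCRC2, COX5A, COX6C, ATP5F1A, ATP5PB and ATP5PO. They are 13.6% of the members, near the 10% of the 10908 genes tested in all 3 that were called lower in each. COX5A, a matrix-side subunit of complex IV, was at 53.0, 48.8 and 54.9 CPM in endoderm nucleoplasm and at 17.1, 10.98 and 13.6 CPM on chromatin, with no overlap (-1.90 ± 0.19, adjusted p = 1.15e-06), and it was at -0.84 ± 0.22 in ectoderm and -0.69 ± 0.17 in hPSC. NDUFB9 fell from 125, 138 and 151 CPM in endoderm nucleoplasm to 37.5, 19.3 and 20.5 CPM on chromatin (-2.41 ± 0.25, adjusted p = 1.47e-06). ATP5PB, the b subunit of the peripheral stalk, was at 61.6, 53.8 and 64.0 CPM in ectoderm nucleoplasm and at 31.7, 34.8 and 31.0 CPM on chromatin (-0.88 ± 0.13). COX6A1 was lower in ectoderm (-1.13 ± 0.15) and endoderm (-2.24 ± 0.30) and at -0.51 in hPSC (adjusted p = 0.0538).

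NDUFS7 was the exception, called higher on chromatin in all 3 cell types. It was at 54.9, 50.7 and 58.6 CPM in ectoderm nucleoplasm and at 76.8, 70.0 and 75.9 CPM on chromatin, and in endoderm at 38.0, 32.6 and 35.6 CPM against 58.0, 46.4 and 60.2 CPM. The chromatin libraries stood above all nucleoplasm libraries, by 0.44 ± 0.13 for ectoderm (adjusted p = 0.0166), 0.63 ± 0.19 in endoderm (adjusted p = 0.00959) and 0.53 ± 0.19 in hPSC (adjusted p = 0.0485). The hPSC call for NDUFS7 was lost in 4 of 6 fits without 1 library and with DESeq2 (0.51, adjusted p = 0.05415). Its ectoderm call was lost in 3 of 6 fits without 1 library. NDUFV1 was also higher in endoderm (0.57 ± 0.18), a call lost in 2 of 6 such fits. CYC1 was at 0.18, -0.13 and 0.35 and passed the test in none of the 3.

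Without 1 of the 3 hPSC nucleoplasm libraries the hPSC count of 10 fell to 4 (without replicate 1), 5 (replicate 2) or 6 (replicate 3). Library totals gave 4 higher and 6 lower in hPSC, 6 and 33 in ectoderm, and 8 and 31 in endoderm, and TPM gave 14 and 0, 8 and 4, and 5 and 35, while both scalings move the median of all genes on chromatin upward, to 0.16 and 0.49 in hPSC. The members' median lay below the all-gene median under every setting, at a difference of -1.18 to -0.91 for endoderm, -0.76 to -0.53 for ectoderm and -0.43 to -0.30 for hPSC.

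The transcripts listed under a gene divided unevenly between fractions. This was noticed after the values were seen and is given as a description without a test, and the split between overlapping transcripts is an estimate made from short reads. For CYC1, the retained-intron transcript ENST00000533444 took 61.4, 63.8 and 65.9% of the gene's counts in the 3 endoderm chromatin libraries against a mean of 2.03% in endoderm cytoplasm. Its chromatin share was 16.7, 15.3 and 22.3% in hPSC, 18.0, 32.8 and 20.1% in ectoderm and 35.3, 49.5 and 13.9% in mesoderm, while cytoplasm means were between 1.58 and 2.62%. Every chromatin library thus had a larger share than the cytoplasm mean of its cell type. From endoderm nucleoplasm to chromatin the mean of the coding transcript ENST00000318911 went from 77.0 to 39.5 CPM and that of the retained-intron transcript from 7.90 to 68.5 CPM, so the means of these 2 transcripts differed in opposite directions.

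For NDUFS7 the transcript that carried the chromatin excess was ENST00000313408, listed as protein coding and 2818 bases long. It went from 15.4 to 43.1 CPM in endoderm and from 24.8 to 56.5 CPM in ectoderm, while the transcript of 1039 bases, ENST00000233627, went from 18.9 to 10.2 and from 30.0 to 17.7 CPM. In hPSC the long transcript went from 8.52 to 26.3 CPM and the short one from 36.2 to 37.9 CPM. COX4I1 had its retained-intron transcript ENST00000568339 at 27.7% on endoderm chromatin, 20.1% on mesoderm, 12.6% on hPSC and 7.56% on ectoderm chromatin, against 2.56 to 4.26% in cytoplasm. The NDUFA5 transcript ENST00000492549 made up 65.2% (60.1 to 67.9%) on ectoderm chromatin and 12.0% in ectoderm cytoplasm. Over the members, the tables listed 5, 10, 4 and 6 retained-intron transcripts in hPSC, ectoderm, endoderm and mesoderm, and their share was larger on chromatin than in cytoplasm for 4, 10, 4 and 6 of them. The exception was ENST00000484103 of NDUFA3, an accessory subunit of complex I, with 25.3% in hPSC cytoplasm and 9.89% on chromatin. Summed over the genes with such a transcript, the retained-intron share averaged 13.9% on chromatin, 7.56% in the nucleus and 4.33% in cytoplasm of hPSC, 55.5, 16.3 and 3.66% in endoderm, and 33.2, 27.4 and 8.26% in mesoderm. In ectoderm the summed share was 24.7% on chromatin and 4.78% in the nucleus, below the 6.33% in cytoplasm. This was another measure in which the libraries labelled ectoderm nucleus went against their label.

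The third comparison sets the germ layer cells against hPSC within a fraction. All 3 share the hPSC libraries. In cytoplasm no member was called higher in any germ layer: 45 were lower in ectoderm, where 75.9% of all genes were called, 37.9% lower and 38% higher, 40 in endoderm (58.1% called, 28.6% lower, 29.6% higher) and 44 in mesoderm (68% called, 33.4% lower, 34.6% higher). The median log2 change was -0.82, -0.60 and -0.75. By complex, the medians for ectoderm were -0.79, -0.91, -0.83 and -0.82 for complexes I, III, IV and V, for endoderm -0.56, -0.60, -0.69 and -0.31, and for mesoderm -0.80, -1.01, -0.79 and -0.55, so all complexes had lower medians in each germ layer.

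ATP5F1B was at 1448, 1377 and 1352 CPM in hPSC cytoplasm, at 615, 695 and 594 CPM in ectoderm, at 1050, 1116 and 1258 CPM in endoderm and at 667, 634 and 711 CPM in mesoderm. None of the germ layer libraries reached an hPSC library, and the log2 change was -1.13 ± 0.11 in ectoderm (adjusted p = 2.74e-07), -1.05 ± 0.11 in mesoderm (adjusted p = 1.06e-06) and -0.29 ± 0.11 in endoderm (adjusted p = 0.0375). The endoderm call was lost without endoderm cytoplasm replicate 1 or 2. It was also lost in edgeR's test with a replicate block (adjusted p = 0.0619). UQCRC1 was at 296, 348 and 318 CPM in hPSC, 111, 141 and 115 CPM in ectoderm, 229, 228 and 280.2 CPM in endoderm and 158, 147 and 173 CPM in mesoderm. It fell by 1.39 on the log2 scale in ectoderm and by 1.01 in mesoderm. CYC1 had -1.23 in ectoderm, -0.48 in endoderm and -1.17 in mesoderm. NDUFA11, a membrane-arm subunit of complex I, was at 272, 168 and 148 CPM in hPSC and 52.5, 55.4 and 61.3 CPM in ectoderm (-1.79 ± 0.18, adjusted p = 3.71e-07). NDUFS1 was lower in mesoderm (-0.99 ± 0.13) and at -0.25 in ectoderm and 0.00 in endoderm, and ATP5F1A was lower in ectoderm (-0.81) and mesoderm (-0.55) and at -0.04 in endoderm. COX7B was lower in all 3 by -1.37 to -1.41 in counts, but its implied length differed 15.7-fold between tables and TPM gave 0.17, 2.84 and 2.57.

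The sizes of these differences lean on hPSC cytoplasm replicate 1, where COX7C, a small complex IV subunit, stood at 1350 CPM against 598 and 496 CPM in the other hPSC libraries. Summed over all 59 genes, hPSC cytoplasm held 9423 to 15650 CPM, ectoderm 6106 to 7309, endoderm 7686 to 8861 and mesoderm 6115 to 7557, so no germ layer library reached the lowest hPSC library. Without hPSC cytoplasm replicate 1 the medians were -0.41, -0.34 and -0.42, with 35, 32 and 36 members lower and 3, 0 and 1 higher in ectoderm, endoderm and mesoderm. The endoderm count of 40 was 26 without endoderm cytoplasm replicate 1 and 23 without replicate 2, and on TPM 17 were lower and 2 higher. TPM gave 32 lower and 6 higher in mesoderm. The 13 mitochondrially encoded subunits did not follow: 12 were higher in ectoderm cytoplasm and 13 in mesoderm, and 4 lower in endoderm. Of 75 mitochondrial ribosomal protein genes, 66, 53 and 61 were lower.

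**Figure D3:**
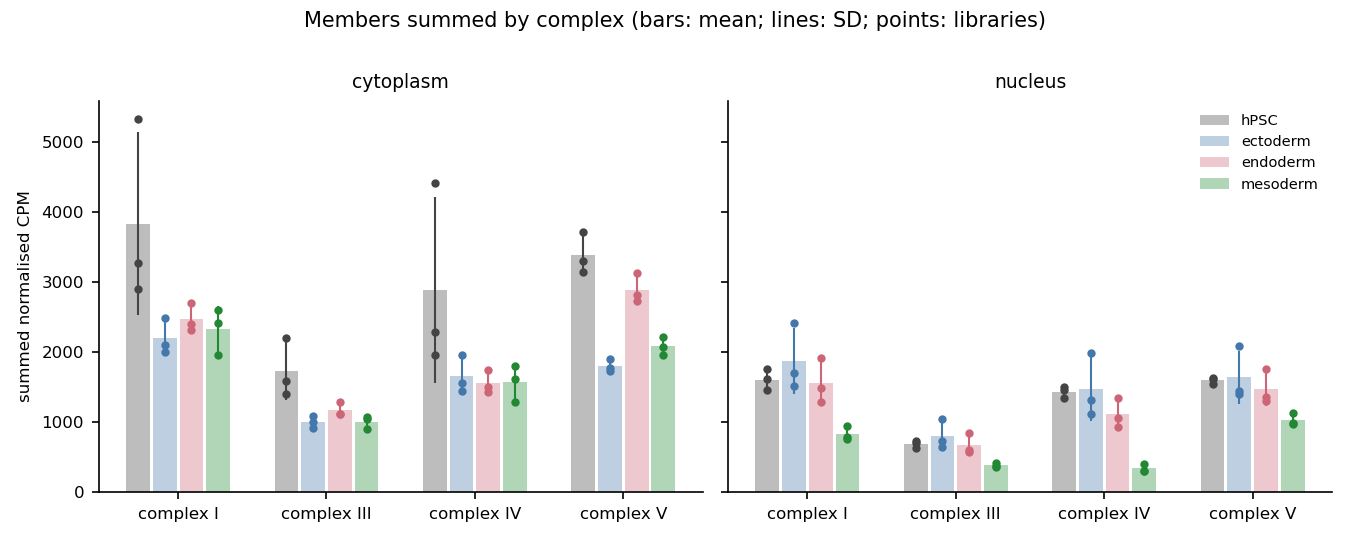
Summed normalised CPM of complexes I, III, IV and V in cytoplasm and nucleus for the 4 cell types, with bars for means, lines for SD and points for libraries. In cytoplasm hPSC has the tallest bars for complex I (mean 3833), and in the nucleus the mesoderm bar for complex IV (mean 342) is the lowest of the 4 cell types.

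In the nucleus the germ layers differed among themselves. Mesoderm had 49 members lower and 1 higher than hPSC, where 54% of all genes were called, 28% lower and 26% higher, with a median log2 change of -1.36. Endoderm had 16 lower and 3 higher (57.4% of all genes called, 29.3% lower, 28.1% higher, members' median -0.25), and ectoderm 16 higher and 4 lower (57.6% called, 28.7% higher, 28.9% lower, median 0.25), both below the share called over all genes. All 11 subunits of complex IV were lower in the mesoderm nucleus, with a median of -2.15, beside 26 of complex I, 5 of complex III and 7 of complex V. The summed complex IV level in the nucleus averaged 1479 CPM for ectoderm, 1439 for hPSC, 1117 for endoderm and 342 for mesoderm. The 13 mitochondrially encoded subunits were all lower in the mesoderm nucleus as well (median -3.82), the group in which their share of counts was 1.31%, and their part in the difference was not tested.

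COX6A1 was at 328, 367 and 381 CPM in the hPSC nucleus, 125, 183 and 132 CPM in ectoderm, 367, 260.2 and 244 CPM in endoderm and 57.5, 69.5 and 60.0 CPM in mesoderm. Mesoderm lay below all other groups (-2.53 ± 0.20, adjusted p = 2.67e-07), and ectoderm below hPSC (-1.29 ± 0.19). COX8A was at 109.5, 93.6 and 108 CPM in hPSC and 12.98, 17.0 and 17.2 CPM in mesoderm (-2.73 ± 0.32, adjusted p = 8.95e-06). NDUFA5 was at 26.1, 16.04 and 12.95 CPM in hPSC and 1.201, 3.89 and 6.07 CPM in endoderm, with no overlap (-2.27 ± 0.42, adjusted p = 0.000445), while its cytoplasmic level did not pass the test there (-0.41). ATP5F1E was higher in the ectoderm nucleus in counts (1.89 ± 0.27) and at -3.47 on TPM, the gene with the long implied transcript in that table. NDUFB6, a membrane-arm subunit, was at -0.55, -0.74 and -1.40 and NDUFS1 at -0.51, -0.89 and -0.58 in ectoderm, endoderm and mesoderm, each past the threshold. The ectoderm call of NDUFB6 was lost in 3 of 6 fits without 1 library, and TPM gave 0.19 for NDUFS1 in mesoderm. NDUFA10 was the 1 member called higher in the mesoderm nucleus (0.36, adjusted p = 0.0382), a call lost without any 1 of the 6 libraries.

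The ectoderm count of 20 was 12 without hPSC nucleus replicate 2, 13 without replicate 3, and its median was 0.06 without ectoderm nucleus replicate 2. The endoderm count of 19 was 11 without hPSC nucleus replicate 1, and its median was -0.40 without endoderm nucleus replicate 1 and -0.14 without replicate 3. TPM gave 6 higher and 23 lower in ectoderm with an all-gene median of -0.33, and 7 higher and 28 lower in mesoderm with one of 0.78. Library totals gave 11 higher and 5 lower in ectoderm and 0 and 38 in endoderm, with all-gene medians of -0.09 and -0.44. The upper quartile scaling gave 1 and 23 in endoderm, DESeq2 6 and 16, and TPM 2 and 39 with an all-gene median of -0.33. The endoderm members' median less the all-gene median stayed between -0.27 and -0.19 over these settings.

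A test of the difference itself, the cytoplasm to nucleus change in a germ layer against that in hPSC, set the fractions together. In ectoderm 44 members had a lower change than in hPSC and none a higher one (51.9% of all genes called, 24.5% lower, 27.4% higher), with 24 in complex I, 6 in complex III, 6 in complex IV and 8 in complex V. In mesoderm 19 had a higher change and none a lower one (25.6% called, 18.8% higher, 6.89% lower), 8 of them among the 11 subunits of complex IV, whose median difference was 1.26 against 0.67 for all members. In endoderm 9 were lower and 3 higher (37.9% called, 18.3% lower, 19.6% higher), a smaller share than over all genes. UQCRFS1 had a difference of -1.20 ± 0.23 in ectoderm (adjusted p = 0.000204). COX6A1, in nuclear excess in hPSC, had a difference of 2.14 ± 0.28 in mesoderm (adjusted p = 1.96e-05), and COX8A 1.87 ± 0.43. NDUFA5 had 1.80 ± 0.46 in endoderm (adjusted p = 0.00507), opposite to CYC1 with -0.99 ± 0.24.

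The mesoderm count of 19 was 34 without hPSC cytoplasm replicate 1 and 11 or 12 without hPSC nucleus replicate 1, hPSC cytoplasm replicates 2 or 3, mesoderm nucleus replicates 1 or 3, or mesoderm cytoplasm replicate 2. The endoderm count of 12 was 7 without endoderm cytoplasm replicate 2, and its median of -0.37 was -0.05 without hPSC cytoplasm replicate 1, with 6 higher and 6 lower, and -0.58 without replicate 3. Library totals gave 10 higher and 5 lower in both endoderm and mesoderm, with all-gene medians of 0.48 and -0.18. TPM gave 15 higher and 1 lower in endoderm, 6 and 12 in mesoderm, and 3 and 12 in ectoderm, with all-gene medians of 0.53, -0.60 and 0.48, and the upper quartile scaling gave 4 and 5 in endoderm. These scalings moved all genes: the members' median less the all-gene median lay between -0.37 and -0.12 in endoderm, 0.43 and 0.58 in mesoderm and -1.12 and -0.88 in ectoderm over the scalings and tests tried.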

How the data were processed

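Counts and TPM per transcript and library were analysed for 46 subcellular RNA-seq libraries. The authors deposited estimated counts, rounded to whole numbers, and TPM values per transcript of an assembly made for each cell type. STAR, RSEM and the hg38 build are named in the submitters' processing notes, and their roles and versions are not given in the sources used here. Rows were summed per Ensembl gene, and 0.278 to 9.60% of counts had no such gene and were left out of library sizes. Columns with the fraction code Nei were taken as nucleus because the 3 other fractions carry their own codes. A further 2 columns matched no sample and were not used.

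The summed counts were tested with edgeR 4.0.16 (R 4.3.3, Python 3.11.15), quasi-likelihood F test, TMM factors, a low-count filter at 10 counts, Benjamini-Hochberg adjustment over all genes tested and a threshold of 0.05. Each cell type was fitted with all its fractions. Cytoplasm, nucleus and the difference between them were each fitted over all cell types. An SE is the log2 change divided by the square root of F. Alternatives were limma 3.58.1 on log2(TPM + 1), DESeq2 1.42.0, other scalings, no filter, transcript subsets, a combined assembly, a replicate block and leaving out each library. The tests were tried on simulated counts.

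Named members were 7 core or catalytic subunits, up to 3 with the largest rise and fall per comparison among called members whose groups did not overlap, members called in every cell type, members called against their complex, and the extremes of TPM in each complex. Others were chosen after their values were seen. Members and lists were chosen with earlier results of these data known.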

Additional observations from a re-analysis of the deposited data

Results flagged for a closer look

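These results are those in which a test of the difference itself, the cytoplasm to nucleus change in a germ layer against that in hPSC, passed the threshold (edgeR's quasi-likelihood test, adjusted p under 0.05). All 3 contrasts share the hPSC libraries, and the mitochondrial share of counts differed between the same groups, a part that was not tested.

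In ectoderm 44 of the 59 members differed, against 51.9% of all genes, all toward less cytoplasmic excess. The largest log2 differences were -2.02 for NDUFA3, an accessory subunit of complex I, -1.81 for NDUFB2, another accessory subunit, and -1.79 for UQCRH of complex III. Among the core and catalytic subunits the difference was -1.20 for UQCRFS1, -1.01 for CYC1, -0.9994 for ATP5F1B, -0.98 for COX4I1, -0.88 for NDUFV1 and -0.73 for ATP5F1A.

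In endoderm 12 members differed, in both directions, a smaller share than the 37.9% of all genes. NDUFA3 had -2.08, NDUFA13 -1.40, NDUFS7 -1.29 and CYC1 -0.99, whereas NDUFA5 had 1.80, NDUFS1 0.86 and UQCRC2, a core protein of complex III, 0.57. The UQCRC2 call was lost in 4 of 12 fits without 1 library. For NDUFA3, 4 of 9 transcripts in ectoderm and 2 of 4 in endoderm had no Ensembl ID, against 0 of 4 in hPSC. Without such transcripts its change in the endoderm nucleus against hPSC went from 0.88 to -0.34.

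In mesoderm 19 members differed, against 25.6% of all genes, all toward more cytoplasmic excess. The named ones are subunits of complex IV: COX6A1 with 2.14, COX8A with 1.87, COX7A2 with 1.68 and COX4I1 with 1.13.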

How the results depend on the processing

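Of 132 results for named members, 30 lost their call in at least 1 refit without a library. TPM reversed 13 and left 42 more without their call. Library totals reversed 3 and left 15 more without it. TPM gave 12 called members instead of 38 for ectoderm chromatin, 19 instead of 40 for endoderm cytoplasm against hPSC, 41 instead of 19 for the endoderm nucleus (library totals 38), and 15 instead of 44 for the ectoderm difference from hPSC.

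Replicate numbers did not pair the libraries: in none of the 13 comparisons that share numbers did all 3 pairs correlate above 0.1. The fit with a replicate block called 16 members instead of 10 for hPSC chromatin, all of them lower, with NDUFS7 at an adjusted p of 0.0629, and moved no other count by over 1.5 times.

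Leaving out 1 library gave 48 to 56 called members for hPSC cytoplasm against nucleus, 16 to 28 for ectoderm, 35 to 50 for endoderm and 46 to 53 for mesoderm. It gave 4 to 15 for chromatin against nucleoplasm in hPSC, 31 to 39 in ectoderm and 43 to 50 in endoderm. Against hPSC it gave 38 to 48, 23 to 49 and 37 to 47 in ectoderm, endoderm and mesoderm cytoplasm, 12 to 21, 11 to 23 and 46 to 49 in the nucleus, and 32 to 51, 7 to 18 and 11 to 34 for the difference of differences.

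On log2(TPM + 1) the reversed values were, for chromatin, 0.28 for ATP5F1A in hPSC, and 0.073 for COX4I1 and 0.15 for ATP5F1A in ectoderm. For cytoplasm against nucleus they were 0.27 for NDUFS7 in endoderm, and -0.64 for CYC1 and -0.54 for ATP5F1A in mesoderm. Against hPSC they were 0.17, 2.84 and 2.57 for COX7B in ectoderm, endoderm and mesoderm cytoplasm and 2.01 in the endoderm nucleus, -3.47 for ATP5F1E in the ectoderm nucleus, and 0.19 for NDUFS1 and 0.21 for ATP5F1B in the mesoderm nucleus. Library totals reversed NDUFA13 (0.058), NDUFS7 (0.059) and CYC1 (0.18) in endoderm, and counting only transcripts with an Ensembl ID reversed NDUFA3 in the endoderm nucleus (-0.34). The cause was not tested. Low counts limit NDUFB1 most, with 7 counts in 1 mesoderm library.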

Other observations

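Promoter windows of 250 bases before to 50 after the start were found for 49 of the 59 members among 27305 genes in RefSeq (GRCh38.p14), and were searched on both strands for short motifs. The motif of NRF1, a known activator of respiratory genes, was in 10 member windows (20.4%) against 6.98% of all windows, among them those of NDUFA9, UQCRC1, UQCRFS1 and ATP5F1C. The ETS motif CCGGAAG was in 14 (28.6%) against 12.2%, among them COX4I1, COX6A1 and ATP5F1A. The Sp1 motif GGGGCGGGG was in 10 (20.4%) against 18.5%, the CRE motif TGACGTCA in 2 (4.08%) against 2.25%, and the YY1 motif in 2 (4.08%) against 1.04%. The ERRA motif TCAAGGTCA was in 0 of 49 against 0.432%. These are shares of windows that hold each motif, and overlaps between motifs were not removed, with no test.

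The order of the members by their cytoplasm to nucleus change was most alike in ectoderm and endoderm, with Spearman's rho of 0.90 over the 59 genes against 0.67 over all genes. Between endoderm and mesoderm rho was 0.49 over the members and 0.69 over all genes, and between hPSC and mesoderm 0.74 and 0.81. Genes are not independent replicates, and the values describe these libraries.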
